A study of Mus musculus with 16 samples.

Results

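The 7 genes described here encode SREBP2 (Srebf2) and 6 enzymes of cholesterol synthesis that SREBP2 is known to switch on (Hmgcs1, Idi1, Fdps, Sqle, Lss and Cyp51). They were chosen by symbol, as rows of the liver expression table whose Ensembl identifier carries that symbol in the GRCm38 annotation. All 7 were found among 55487 rows, and all 7 are among the 11839 genes that were tested. None of the 7 encodes a lipoprotein receptor, so uptake of lipoprotein cholesterol is described only through a separate list of 11 genes.

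The samples are livers of 16 obese male C57BL6/J mice. They fall into 4 groups of 4, and each mouse gave 1 library of liver RNA. The study asked whether extra dietary protein alters what the liver does under G108, a long-acting analogue of glucagon that acts on the glucagon receptor. Mice of all groups first ate a 60 kcal% fat diet for 8 weeks from 10 weeks of age by the sample records, so no lean or chow-fed mice enter any comparison. The vehicle SP group then received vehicle while eating a high fat diet of standard protein content, and the vehicle HP group received vehicle with a high fat diet of high protein content. The G108 SP and G108 HP groups received G108 at 2.5 nmol/kg under the skin each day on the same diets. Treatment lasted 22 days, and liver was taken after a 4 h fast, on day 25 by the sample records. The methods of the study give another age, another length of feeding and another final day.

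Liver cells make cholesterol from acetyl-CoA through mevalonate, isoprenoid diphosphates, squalene and lanosterol. SREBP2 is a transcription factor that is held in the membrane of the endoplasmic reticulum together with its escort protein SCAP. When membrane sterol is low, SCAP carries SREBP2 to the Golgi, where proteases release the active part, which enters the nucleus and raises transcription of the synthesis enzymes and of genes for lipoprotein uptake. When sterol is high, INSIG proteins hold SCAP back. mRNA of the target enzymes is therefore a common readout of SREBP2 activity, whereas the level of Srebf2 mRNA itself does not report processing of the protein.

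SREBP2 acts through sterol regulatory elements near the start of its targets, often beside CCAAT boxes bound by NF-Y, so the sequences before the starts are shown where the reference table has them. RefSeq promoters of build GRCm38.p6, with 250 bases before and 50 bases after each start, were found for 5 of the 7 genes. Fdps and Sqle are named only. The core TCACNCCAC was searched on both strands and was found in 1 of the 5, Hmgcs1, at bases 114 to 122, and in 1.24% of 32851 promoters of the table. The letters CCAAT, searched on both strands, were found in all 5, against 37.4% of all promoters. In the Hmgcs1 sequence the capitals mark the core and 3 of its 4 CCAAT boxes, which read ATTGG on the strand of the gene. The remaining box lies after the start. The other sequences are windows of 35 bases around 1 CCAAT box each, in capitals, to show the same box in 4 genes of the set. The starts are those of RefSeq. By the gene coordinates given further below, the Idi1 and Cyp51 windows lie inside the annotated gene.
Hmgcs1 (chr13:119690101-119690350, plus strand): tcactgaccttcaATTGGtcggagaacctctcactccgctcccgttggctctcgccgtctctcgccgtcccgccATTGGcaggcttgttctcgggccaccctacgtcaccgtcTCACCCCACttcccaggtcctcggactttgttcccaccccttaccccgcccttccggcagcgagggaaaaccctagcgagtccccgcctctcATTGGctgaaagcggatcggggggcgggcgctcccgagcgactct
Srebf2 (chr15:82147119-82147153, plus strand): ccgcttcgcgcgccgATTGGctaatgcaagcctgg
Idi1 (chr13:8885546-8885580, plus strand): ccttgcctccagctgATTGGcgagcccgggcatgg
Lss (chr10:76531528-76531562, plus strand): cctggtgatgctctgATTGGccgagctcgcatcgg
Cyp51 (chr5:4104707-4104741, minus strand): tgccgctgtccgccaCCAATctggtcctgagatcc
A match of these letters is a description of the window and not a bound site. Only 1 form of the core was searched, so a promoter without a match may still hold a sterol regulatory element.

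The libraries held 27.8 to 45.03 M assigned reads, recovered from the steps of the deposited TPM values. The sums of 6 hepatocyte markers reached 15613 to 54258 TPM, and adipocyte and skeletal muscle markers summed to at most 0.244 TPM. Erythroid markers summed to 605 to 2106 TPM, Kupffer cell markers to 24.5 to 86.9, stellate and endothelial markers to 7.19 to 21.4, and cholangiocyte and exocrine pancreas markers to at most 2.09. Major urinary protein (Mup) transcripts took 35.7% to 49.7% of TPM with vehicle and 18.2% to 29.6% with G108. TPM sum to the same total in every library. Before any scaling the median gene was 0.60 higher on the log2 scale with G108 on SP, 0.09 higher on HP and 0.35 higher averaged over diets, and after scaling it lay within 0.01 of 0. The part of the Mup share in that shift was not tested. Levels below are scaled TPM, which are deposited TPM divided by a factor for each library (median of ratios, 0.681 to 1.54), unless deposited TPM is written. Fold changes are differences of log2(scaled TPM + 1), which understate changes of low genes, and adjusted p-values are Benjamini-Hochberg values from limma over 11839 genes. Tat, a liver gene that glucagon is known to induce, rose by a log2 of 1.58 ± 0.22 (SE) with G108 averaged over diets (adjusted p = 0.000514). In whole liver, fewer hepatocytes and less RNA per hepatocyte cannot be told apart.

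On this scale the 7 genes did not pass the test in any comparison of the 4 groups. The mean log2 level of the 7 genes spanned more between mice of each group than between the 4 group means. Means of 4 mice vary less than single mice, so this does not tell whether the groups differ. With vehicle, all 7 means were higher on HP than on SP, by log2 values of 0.12 for Lss to 0.83 for Idi1. G108 gave means on either side of vehicle on SP, and on HP 6 of 7 means were below vehicle. Between mice of 1 group the levels of Hmgcs1, Idi1, Fdps, Sqle and Cyp51 went up and down together, and Srebf2 and Lss went with them in all groups but vehicle SP.

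**Figure D1:**
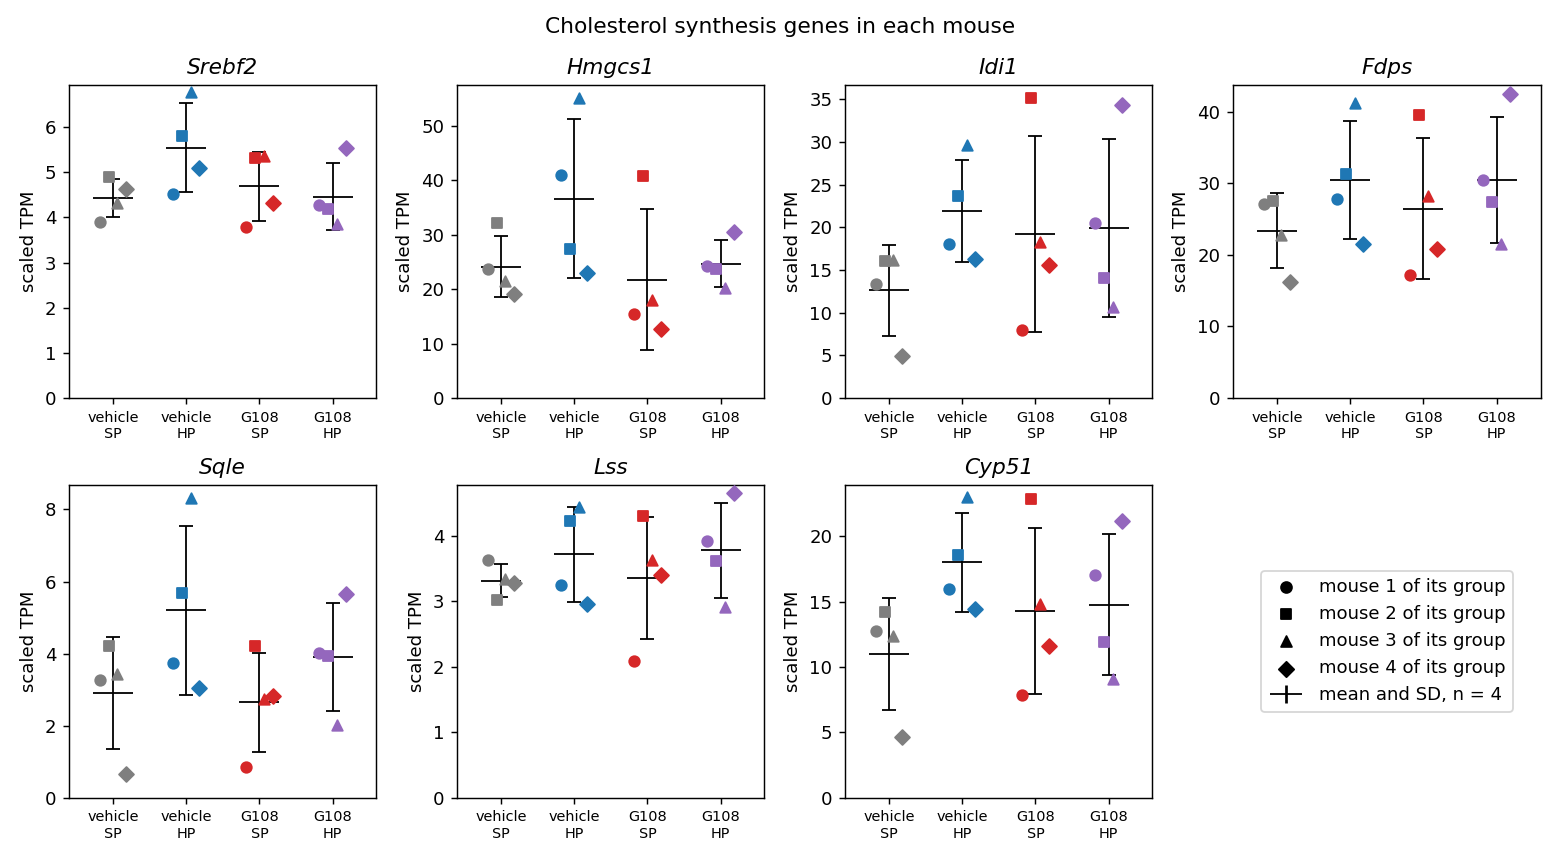
Scaled TPM (y axes, each from 0) of the 7 genes in each of 16 mice, by group, with symbols for the mouse number and bars for the mean and SD of 4 mice. All pairs of groups overlap, except vehicle SP and vehicle HP for Idi1 and Cyp51, and the same mouse is at the top or the bottom of its group in several panels, such as mouse 3 of vehicle HP and mouse 4 of vehicle SP.

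Srebf2 (ENSMUSG00000022463, chr15:82147181-82205379, plus strand) encodes the transcription factor itself and was the steadiest of the 7 from mouse to mouse. Its level was 3.90, 4.89, 4.32 and 4.63 scaled TPM in mice 1 to 4 of vehicle SP and 4.51, 5.81, 6.78 and 5.08 in vehicle HP. It was 3.78, 5.30, 5.35 and 4.32 in G108 SP and 4.27, 4.18, 3.85 and 5.53 in G108 HP. The highest mouse, in vehicle HP, was 1.79 times the lowest, in G108 SP, and every pair of groups overlapped. Means were 4.43 ± 0.425 (SD, n = 4), 5.55 ± 0.980, 4.69 ± 0.769 and 4.46 ± 0.738 for vehicle on SP and HP and for G108 on SP and HP. The largest differences were a log2 of 0.26 ± 0.13 (SE) for HP against SP with vehicle (adjusted p = 0.832) and −0.26 ± 0.13 for G108 against vehicle on HP (adjusted p = 0.473), and both comparisons hold the vehicle HP mice. With weights for library quality in limma, the second was −0.37 ± 0.10 and passed the test (adjusted p = 0.0461), as did 6.72% of all genes with those weights.

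Hmgcs1 (ENSMUSG00000093930, chr13:119690379-119708260, plus strand) encodes cytosolic HMG-CoA synthase, the enzyme that condenses acetoacetyl-CoA with acetyl-CoA ahead of mevalonate. It measured 23.7, 32.2, 21.5 and 19.2 scaled TPM in vehicle SP and 40.9, 27.4, 55.2 and 22.9 in vehicle HP. In G108 SP it measured 15.4, 40.9, 18.1 and 12.6, and in G108 HP 24.4, 23.8, 20.2 and 30.5. Of 4 G108 SP mice 3 lay below all vehicle SP mice and mouse 2 was above them all. The means were 24.2 ± 5.67, 36.6 ± 14.6, 21.7 ± 13 and 24.7 ± 4.27 (SD, n = 4) in the same order of groups. Hmgcs1 had the lowest G108 difference of the 7 on both diets, a log2 of −0.27 ± 0.32 on SP and −0.48 ± 0.32 on HP (adjusted p = 0.658 and 0.653), and its 95% interval on HP ran from −1.17 to 0.20. Without mouse 3 of vehicle HP the value on HP was −0.26. Without mouse 2 of G108 SP the value on SP was −0.61, still short of the test over all genes.

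Idi1 (ENSMUSG00000058258, chr13:8885501-8892451, plus strand) encodes isopentenyl-diphosphate isomerase, which makes dimethylallyl diphosphate, the starter of isoprenoid chains. Its level was 13.3, 16.1, 16.2 and 4.92 scaled TPM in vehicle SP, 18.1, 23.7, 29.6 and 16.3 in vehicle HP, 7.96, 35.2, 18.3 and 15.6 in G108 SP, and 20.6, 14.1, 10.7 and 34.4 in G108 HP. All vehicle HP mice were above all vehicle SP mice, by a narrow margin, and the G108 groups spanned both. The means were 12.6 ± 5.30, 21.9 ± 6.02, 19.3 ± 11.5 and 19.9 ± 10.5 (SD, n = 4), and HP against SP with vehicle was a log2 of 0.83 ± 0.44 (adjusted p = 0.832, 95% interval −0.10 to 1.77). Without mouse 4 of vehicle SP, the lowest of the 16, that difference was 0.47.

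Fdps (ENSMUSG00000059743, chr3:89093588-89101959, minus strand) encodes farnesyl-diphosphate synthase, at the branch between sterols and other isoprenoids. It measured 27.1, 27.5, 22.7 and 16.2 scaled TPM in vehicle SP, 27.8, 31.4, 41.2 and 21.6 in vehicle HP, 17.2, 39.5, 28.3 and 20.8 in G108 SP, and 30.5, 27.3, 21.5 and 42.4 in G108 HP. Every pair of groups overlapped, and vehicle HP, G108 SP and G108 HP each held 1 mouse well above the rest. The means were 23.4 ± 5.24, 30.5 ± 8.21, 26.5 ± 9.85 and 30.4 ± 8.82 (SD, n = 4). G108 against vehicle was a log2 of 0.13 ± 0.27 on SP and −0.01 ± 0.27 on HP (adjusted p = 0.797 and 0.995). An overlapping protein-coding gene model on the same strand, Gm43738, averaged 46.6 deposited TPM, so how reads were split between it and Fdps is uncertain.

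Sqle (ENSMUSG00000022351, chr15:59315077-59331192, plus strand) encodes squalene epoxidase, the first oxygen-requiring step and a rate-limiting enzyme of the sterol branch. Its level was 3.28, 4.22, 3.45 and 0.657 scaled TPM in vehicle SP, 3.75, 5.69, 8.31 and 3.06 in vehicle HP, 0.849, 4.2, 2.75 and 2.81 in G108 SP, and 4.01, 3.94, 2.02 and 5.67 in G108 HP. Mouse 4 of vehicle SP and mouse 1 of G108 SP stood well below the rest, and the span over 16 mice, 12.6 times, was the widest of the 7. The fewest reads behind a value were 98, for a counting error of 10.1%, far smaller than that span. Means were 2.90 ± 1.55, 5.20 ± 2.35, 2.65 ± 1.38 and 3.91 ± 1.49 (SD, n = 4), with HP above SP by a log2 of 0.72 ± 0.39 with vehicle (adjusted p = 0.832) and 0.47 ± 0.39 with G108 (adjusted p = 0.858). Without mouse 4 of vehicle SP the first was 0.35, and without mouse 1 of G108 SP the second was 0.17.

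Lss (ENSMUSG00000033105, chr10:76531588-76557138, plus strand) encodes lanosterol synthase, which closes the sterol rings. It measured 3.64, 3.01, 3.34 and 3.28 scaled TPM in vehicle SP, 3.24, 4.23, 4.44 and 2.97 in vehicle HP, 2.09, 4.30, 3.63 and 3.40 in G108 SP, and 3.93, 3.62, 2.91 and 4.65 in G108 HP. All groups overlapped, and the vehicle SP mice were closer together for Lss than for any of the other enzymes. Means were 3.32 ± 0.257, 3.72 ± 0.724, 3.36 ± 0.929 and 3.78 ± 0.722 (SD, n = 4). The 95% interval of the G108 difference ran from −0.35 to 0.32 on SP and from −0.32 to 0.36 on HP, on the log2 scale.

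Cyp51 (ENSMUSG00000001467, chr5:4081145-4104746, minus strand) encodes lanosterol 14α-demethylase, the next enzyme of the pathway. Its level was 12.7, 14.2, 12.4 and 4.63 scaled TPM in vehicle SP, 16, 18.5, 23.0 and 14.4 in vehicle HP, 7.83, 22.8, 14.8 and 11.6 in G108 SP, and 17.0, 11.9, 9.07 and 21.1 in G108 HP. As for Idi1, all vehicle HP mice were above all vehicle SP mice, by a narrow margin, and the G108 groups overlapped with both. The means were 11 ± 4.32, 18 ± 3.76, 14.3 ± 6.37 and 14.8 ± 5.36 (SD, n = 4). HP against SP with vehicle was a log2 of 0.74 ± 0.35, the only value of the 7 genes with an unadjusted limma p under 0.05 in any comparison (adjusted p = 0.832). Without mouse 4 of vehicle SP it was 0.41 ± 0.30.

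Across the 7 genes, G108 against vehicle on SP gave log2 changes from −0.27 for Hmgcs1 to 0.52 for Idi1, with a median of 0.06. Without mouse 4 of vehicle SP the value of Idi1 was 0.16. Of the 7, 0 passed the test (adjusted p from 0.523 to 0.968), where 2.72% of all genes tested passed. On HP the changes ran from −0.48 for Hmgcs1 to 0.02 for Lss with a median of −0.26, again 0 passed, and 1.22% of all genes did. Averaged over diets the values were −0.38 for Hmgcs1 to 0.15 for Idi1 with a median of 0.00, 0 passed, and 5.81% of all genes did. The averaged comparison uses the same libraries as the single-diet ones.

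For dietary protein with G108, the 7 differences ran from −0.06 for Srebf2 to 0.47 for Sqle, with a median of 0.15. Of the 7, 0 passed limma's test, as did 0% of all genes, and 639 of 11839 genes (5.4%) had an unadjusted p under 0.05, none of the 7 among them. With vehicle, the differences ran from 0.12 to 0.83 with a median of 0.53, beside a median of 0.00 over all genes. Of the 7, 0 passed limma's test, as did 0% of all genes, and 466 genes (3.94%) had an unadjusted p under 0.05, Cyp51 among them. Mice of both diets did not overlap for 2 of the 7, Idi1 and Cyp51, and for 2.01% of all genes tested. On deposited TPM the diets overlapped for all 7, and 1.47% of all genes did not overlap. The 7 values of 1 comparison come from the same mice and are not 7 separate pieces of evidence.

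Whether the G108 difference itself depended on diet was tested by the interaction of G108 and diet. The 7 values were −0.74 for Idi1, −0.67 for Cyp51, −0.32 for Srebf2 and between −0.25 and 0.03 for the others. Without mouse 4 of vehicle SP they were −0.38 for Idi1 and −0.34 for Cyp51. None passed (adjusted p from 0.575 to 0.953), with 0% of all genes called by limma and 854 genes (7.21%) at an unadjusted p under 0.05. The 95% interval for Idi1 ran from −2.06 to 0.58, so differences of that size were not resolved with 4 mice per group.

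**Figure D2:**
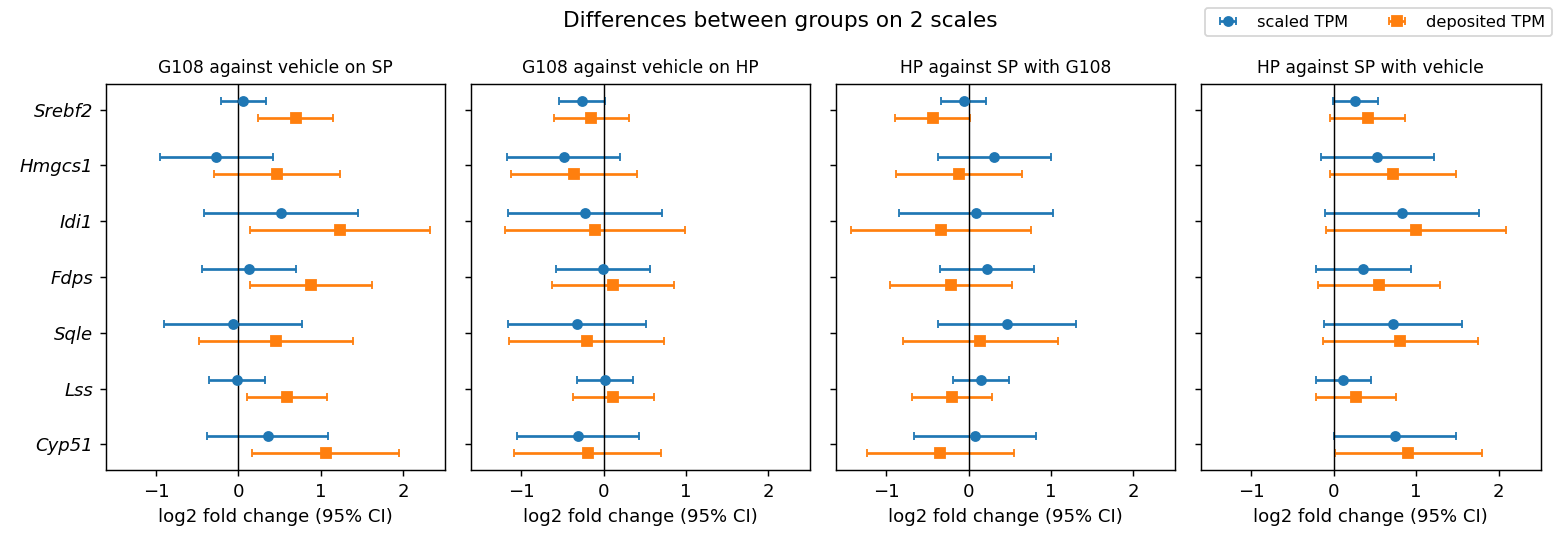
Log2 fold change with its 95% confidence interval from limma (x axis) for the 7 genes (y axis) in 4 comparisons, on scaled TPM (circles) and on deposited TPM (squares). For G108 on SP every square is right of its circle, and the circles of the 7 genes lie between −0.27 and 0.52.

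The call for G108 on SP depended on the scale. On TPM as deposited, Srebf2 averaged 3.6 ± 0.877 TPM (SD, n = 4) in vehicle SP and 6.5 ± 1.58 in G108 SP, a log2 of 0.70 (adjusted p = 0.00930 in limma). All 7 genes were above vehicle on that scale, by 0.46 for Sqle to 1.23 for Idi1 with a median of 0.70. Of the 7, 5 passed the test as higher, namely Srebf2, Idi1 (adjusted p = 0.0393), Fdps (0.88, adjusted p = 0.0317), Lss (0.59, adjusted p = 0.0289) and Cyp51 (1.06, adjusted p = 0.0315). On the same scale 77% of all genes tested were called higher and the median gene was 0.60 above vehicle. The share of 5 of 7 is near that of the whole table and is not read as a result about these genes. In the other comparisons on deposited TPM 0 of the 7 passed, where 1.11% of all genes passed for G108 on HP, 62% for G108 averaged over diets and 0% for the other three.

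For 5 of the 6 enzymes the spread between mice of 1 group was wide for this table. The within-group SD of log2(scaled TPM + 1) was 0.68 for Idi1, 0.61 for Sqle, 0.53 for Cyp51, 0.49 for Hmgcs1 and 0.41 for Fdps, against a median of 0.21 over all genes tested. These 5 lay between the 86.0 and 96.4 percentiles of all genes. Lss, at 0.23, and Srebf2, at 0.18, lay at the 58.7 and 42.0 percentiles.

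The deviations of the 7 genes from their group means went together in 3 of the 4 groups, where all 21 pairs of genes varied in the same direction over the 4 mice (a covariance above 0). In vehicle SP 12 of 21 pairs did, made up of all 10 pairs among Hmgcs1, Idi1, Fdps, Sqle and Cyp51 and 2 of the 11 pairs that hold Srebf2 or Lss. The share of all gene pairs that varied in the same direction within a group was not computed, and all genes of a library share its scaling factor. In vehicle HP, mouse 3 was the highest of its group for all 7. In G108 HP, mouse 4 was the highest and mouse 3 the lowest for all 7. In G108 SP, mouse 2 was the highest for 6 genes and mouse 1 the lowest for 6, and in vehicle SP mouse 4 was the lowest for 5, whereas its Srebf2 (4.63 scaled TPM) was above the group mean and its Lss (3.28) was close to it. The mean log2 level of the 7 genes therefore ran from 2.69 to 3.55 within vehicle SP, 3.39 to 4.19 within vehicle HP, 2.76 to 3.99 within G108 SP and 3.09 to 4.00 within G108 HP. The 4 group means spanned 3.25 to 3.75, and a mean of 4 mice varies less than single mice. Mitochondrial transcripts took 24% of TPM in mouse 4 of vehicle SP and 37.3% in mouse 3 of G108 HP, the highest shares of their groups. In mouse 1 of G108 SP, which was also low, the share was 20.9% against 21.0% in mouse 2, the high mouse of that group. In vehicle HP, mouse 4 was the lowest for 6 genes and had the lowest share of its group, 15.2%. The scaling factor was the lowest of its group in mouse 4 of vehicle SP (0.681), mouse 1 of G108 SP (1.17) and mouse 3 of G108 HP (0.839). It was not the lowest in mouse 4 of vehicle HP (0.874). Of the high mice, it was the highest in mouse 4 of G108 HP (1.24) but not in mouse 3 of vehicle HP (0.912) or mouse 2 of G108 SP (1.32). The parts of the mitochondrial share and the scaling factor in these deviations were not tested.

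**Figure D3:**
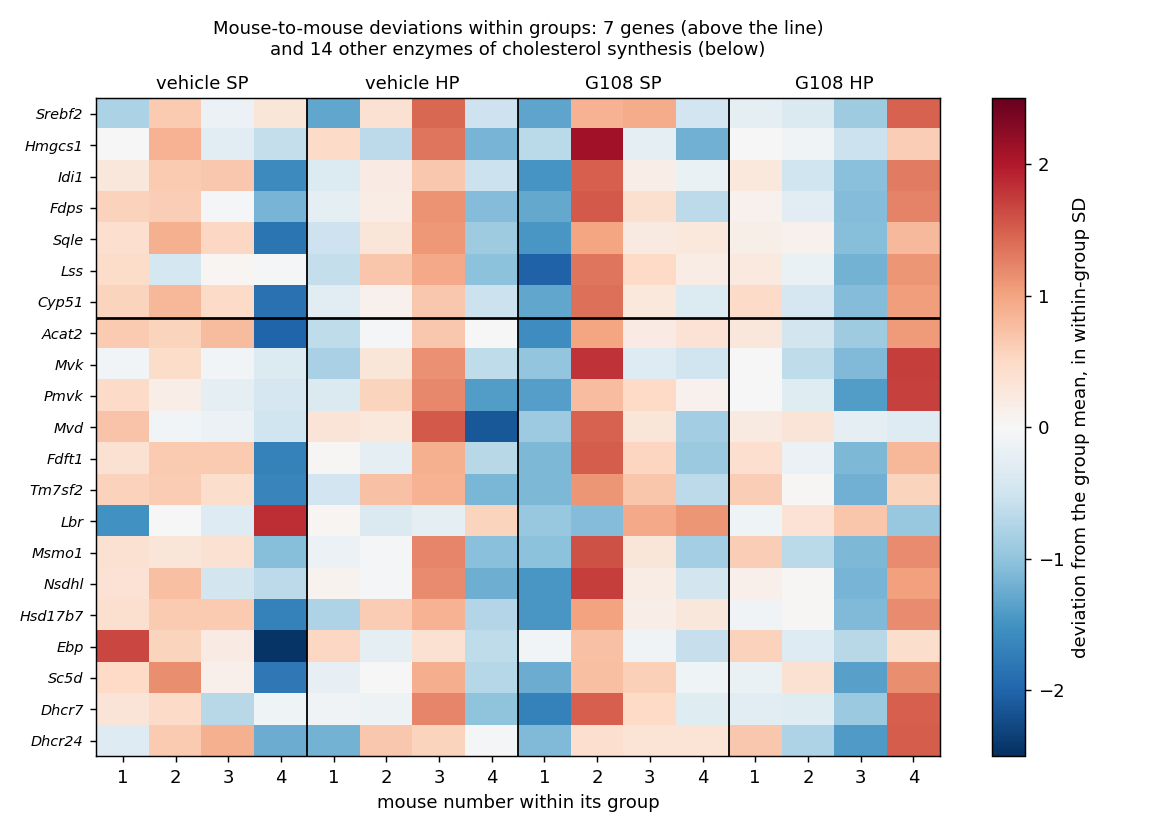
Deviation of log2(scaled TPM + 1) from the group mean, in units of the gene's within-group SD (colour), for the 7 genes above the line and 14 other synthesis enzymes below it (rows) in 16 mice (columns). Whole columns share a colour, as in mouse 3 of vehicle HP (red) and mouse 3 of G108 HP (blue), and Lbr is the row that departs from the others.

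Over the 21 pairs of the 7 genes and all 16 mice, Pearson's r of these deviations ran from 0.54 to 0.98 with a median of 0.746, and Spearman's rho from 0.491 to 0.979 with a median of 0.774. In exact permutation tests (331776 permutations of mice within groups, two-sided), 19 of 21 pairs had an adjusted p under 0.05 for r, and 19 for rho. The pairs share libraries and the factor that scales each library. The share of all gene pairs that would pass was not computed. The count of 19 of 21 therefore has no background beside it and is not read as particular to these genes. Over all genes tested, r to the mean of the 7 ran from −0.643 to 0.643 between the 5th and 95th percentiles. Srebf2 with Cyp51 passed at r = 0.580 (adjusted permutation p = 0.0259), which lies inside that range. Idi1 and Cyp51 were the closest pair, with r = 0.982 and rho = 0.979 (n = 16, exact permutation p adjusted over 21 pairs 6.33e-05 and 0.000142), and r = 0.974 without the 2 mice farthest from the median of Idi1. Srebf2 followed the enzymes less closely, with r from 0.546 for Hmgcs1 to 0.757 for Lss. The pairs that missed the threshold for r were Srebf2 with Hmgcs1 (adjusted permutation p = 0.0786) and Hmgcs1 with Lss (r = 0.540, adjusted permutation p = 0.121, and r = 0.279 without the 2 farthest mice).

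The 10 genes whose deviations were most like the mean of the 7, out of 11832 others, were Gm43738 (r = 0.983), Msmo1 (0.950), Nsdhl (0.947), Mmab (0.928), Fdft1 (0.923), Slc25a1 (0.922), Rdh11 (0.920), Hsd17b7 (0.918), Gm48342 (0.910) and Tm7sf2 (0.908). Of these, 5 are enzymes of the same pathway. Fdft1 makes squalene, and Msmo1, Nsdhl, Hsd17b7 and Tm7sf2 act between lanosterol and cholesterol. Slc25a1 is the mitochondrial citrate carrier that feeds cytosolic acetyl-CoA, Mmab acts in vitamin B12 metabolism and Rdh11 is a retinol dehydrogenase. Gm43738 overlaps Fdps and Gm48342 is antisense to Hmgcs1, so their reads may not be separable from those genes. Over all genes, r had a median of 0.00 and a 5th to 95th percentile range of −0.643 to 0.643.

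**Figure D4:**
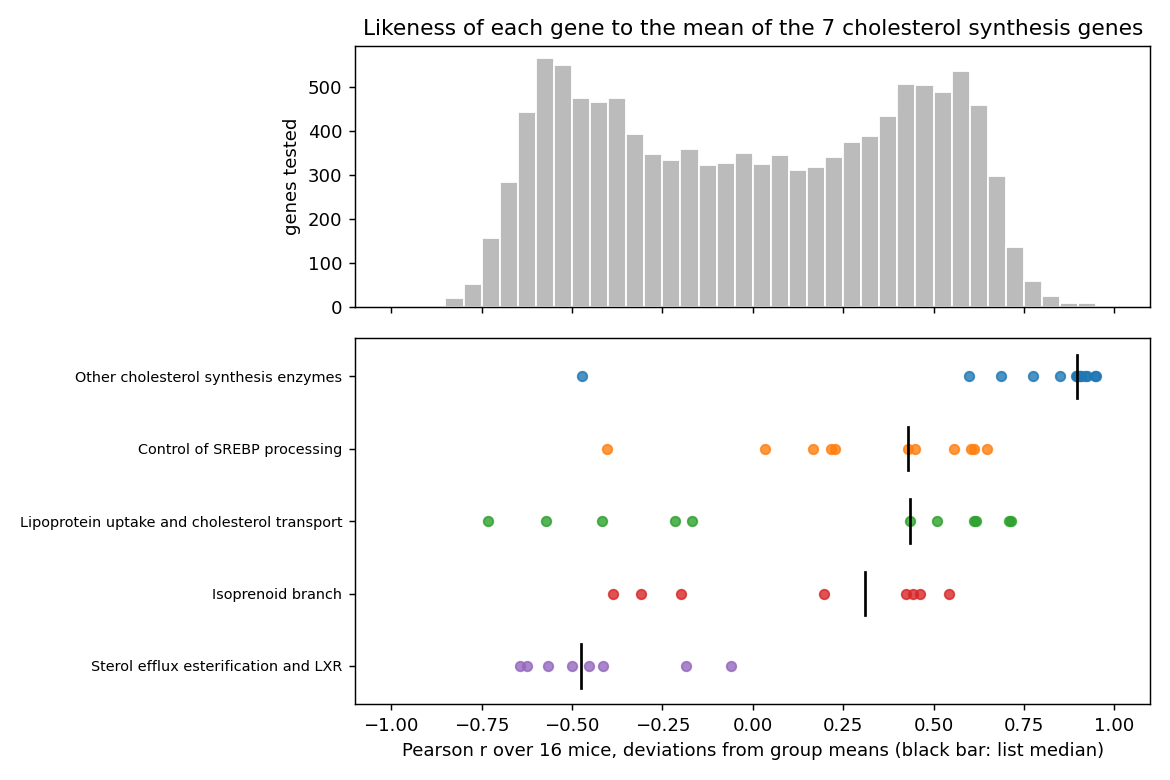
Pearson's r over 16 mice between each gene and the mean of the 7 genes, on deviations from group means (x axis), as a histogram of 11832 genes (top) and for the genes of 5 lists (bottom, 1 point per gene, black bar for the list median). The other synthesis enzymes lie to the right with a median of 0.898, and the genes of sterol efflux, esterification and LXR all lie below 0. The 5th to 95th percentile range of all genes is −0.643 to 0.643.

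Among 14 other enzymes of cholesterol synthesis, 11 were within the 100 genes most like the 7, with a median r of 0.898. Mvd (0.685), Ebp (0.598) and Lbr (−0.473) were outside it. Lbr encodes a sterol reductase that is also a receptor for the nuclear lamina. In the comparisons of groups, 0 of these 14 enzymes passed the test in any of 6 comparisons. Their median log2 difference for HP against SP with vehicle was 0.36, 13 of 14 were above 0, and Msmo1 (0.85 ± 0.30, adjusted p = 0.832), Hsd17b7 (0.66 ± 0.26) and Tm7sf2 (0.49 ± 0.20) had an unadjusted p under 0.05. For G108 the 14 enzymes had medians of 0.22 on SP and −0.11 on HP, and the smallest p of the averaged comparison were those of Acat2 (0.31 ± 0.13, adjusted p = 0.237), which makes acetoacetyl-CoA, and Pmvk (0.32 ± 0.16, adjusted p = 0.344), phosphomevalonate kinase.

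Of 12 genes that control SREBP processing, 11 were tested and 0 passed in any comparison. Scap, the escort of SREBP2, was −0.22 ± 0.08 with G108 averaged over diets (adjusted p = 0.172), and Faf2, which takes part in INSIG1 degradation, was −0.08 ± 0.05 (adjusted p = 0.535). With array quality weights Scap was −0.17 and passed (adjusted p = 0.0428), as did 18.5% of all genes. On deposited TPM Faf2 was 0.27 and passed with the other sign (adjusted p = 0.0413), where 61% of all genes were called higher. Insig1, itself a known SREBP2 target and named here after its values were seen, had means of 62.6 ± 7.04 and 86.4 ± 14.6 scaled TPM on SP and HP with vehicle and 59.1 ± 10.2 and 82.7 ± 14.5 with G108 (SD, n = 4). HP was above SP by a log2 of 0.45 ± 0.17 with vehicle (adjusted p = 0.832) and 0.48 ± 0.17 with G108 (adjusted p = 0.804), neither of which passed. With array quality weights, 2 genes of this list passed for HP against SP with G108, where 297 of all genes did.

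In the list of lipoprotein uptake and cholesterol transport, 11 genes were tested and 1 passed. Npc1, which exports cholesterol from lysosomes after uptake, was 7.02, 7.86, 7.64 and 9.03 scaled TPM in vehicle SP and 6.95, 7.18, 7.27 and 10.4 in vehicle HP. It was 6.82, 6.44, 6.02 and 5.58 in G108 SP and 6.18, 5.92, 4.39 and 5.37 in G108 HP. On this scale all 8 G108 mice were below all 8 vehicle mice, by a narrow margin (6.82 against 6.95). The share of all genes that separated in this way was not computed, so the separation is not read as a result about Npc1. On single diets, G108 and vehicle mice did not overlap for 9.21% of all genes on SP and 8.15% on HP. G108 lowered the averaged level of Npc1 by a log2 of −0.38 ± 0.09 (adjusted p = 0.0189, 0.0177 to 0.0467 with any 1 library left out). On deposited TPM the same difference was 0.02 ± 0.12 (adjusted p = 0.905), where the median gene moved by 0.35. Npc1 did not pass in either diet alone, and 2.95% of all genes tested were called lower in the averaged comparison.

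Of 10 genes of sterol efflux, esterification and LXR, 8 were tested and 0 passed. Abcg8, a subunit of the canalicular sterol exporter, was 0.37 ± 0.11 with G108 averaged over diets (adjusted p = 0.0584) and Lpcat3, an LXR target that remodels phospholipids, was −0.28 ± 0.08 (adjusted p = 0.0533). Both lay near the threshold, and the call turned with the libraries and settings. Abcg8 passed without mouse 1 of vehicle SP, mouse 2 of G108 SP or mouse 1 of G108 HP (adjusted p = 0.0243, 0.0421 and 0.0277), and Lpcat3 without mouse 3 of vehicle SP or mouse 2 of vehicle HP (adjusted p = 0.0451 and 0.0471). Both also passed with array quality weights (adjusted p = 0.0400 for Abcg8 and 0.0123 for Lpcat3) and when the filter kept a mean of 5 TPM or more (adjusted p = 0.0493 and 0.0446), where 7.39% of all genes passed. With array quality weights 18.5% of all genes passed. On deposited TPM Abcg8 was 0.81 (adjusted p = 0.000312) and Lpcat3 was 0.15, with the other sign, where 61% of all genes were called higher. All 8 had a negative r to the mean of the 7 genes, from −0.644 to −0.061. Over all genes this r had a median of 0.00 and a 5th to 95th percentile range of −0.643 to 0.643, so these values were not unusual for the table. Of 8 genes of the isoprenoid branch, 0 passed. The smallest p of the averaged comparison were those of Coq2, of ubiquinone synthesis, at −0.19 ± 0.08 (adjusted p = 0.217), and Dhdds, of dolichol synthesis, at 0.11 ± 0.08 (adjusted p = 0.519).

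The counts of the lists depended on the scale as those of the 7 genes did. On deposited TPM, the genes called higher for G108 on SP were 12 of 14 other synthesis enzymes, 10 of 11 genes that control SREBP processing, 8 of 11 of uptake and transport, 8 of 8 of efflux, esterification and LXR and 7 of 8 of the isoprenoid branch, beside the 77% of all genes. Averaged over diets they were 7 of 14, 5 of 11, 5 of 11, 5 of 8 and 7 of 8, beside 61% of all genes called higher. With array quality weights on scaled TPM, 1, 2, 3, 3 and 0 genes of the lists passed in the averaged comparison, beside 18.5% of all genes.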

How the data were processed

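RNA was extracted from liver with TRIzol and sequenced from 16 mice, 1 library per mouse. The authors checked reads with FastQC 0.11.8, aligned them to GRCm38 with HISAT2 2.0.5, counted reads per gene with featureCounts, tested counts with DESeq2 1.36.0 and deposited TPM values, which are reads per exon length scaled to 1 total in every library. No table of read counts was used, and reads were recovered from the TPM values for depth, counting error and the voom alternative. All columns of values were assigned to mice by their labels. Whether counting used strand is not given in the sources used here, so reads of overlapping genes may not be separable.

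GENCODE annotation of GRCm38 supplied symbols and coordinates and named 55141 of 55487 identifiers. The members and gene lists were chosen with earlier results of these data known. The main scale was deposited TPM divided by median-of-ratios factors from 11591 genes, the kind of scaling behind the test the authors ran on counts. Genes with a mean deposited TPM of at least 1 (11839 genes) were fitted in limma 3.58.1 (R 4.3.3) to log2(scaled TPM + 1). The model held a mean for each group and an intensity trend, tests were two-sided, and genes were called at an adjusted p under 0.05. The fit was tested on simulated data. Depth was recovered because 98.8% of 138231 values under 20 reads were within 0.02 of whole reads, and limits precision by counting error only. The limma p-values weigh a difference against the spread between mice within groups, pooled over the 4 groups of 4 mice and moderated across genes.

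Named genes were the 7 members, up to 4 genes called per list and comparison or else the 2 with the smallest p for G108 averaged over diets, and the 10 genes with the highest r to the members' mean z score. Permutation tests of the pairs of members were added after the data were examined. Alternatives were TPM as deposited, TPM rescaled without mitochondrial and Mup genes, a pseudocount of 0.1, no filter, a mean TPM of at least 5, voom on recovered reads, array quality weights, fits of only the groups compared, a replicate block by mouse number, and each library left out.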

Additional observations from a re-analysis of the deposited data

How the results depend on the processing

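With TPM as deposited, 5 of the 7 genes were called for G108 on SP (9185 of all genes, against 322), and with array quality weights 1 was called for G108 on HP (795 of all genes, against 145). In all other alternatives, including each library left out (lowest 0, highest 0 in each of the 6 comparisons), 0 of the 7 were called. Of 346 values of the 7 genes under alternatives that kept all libraries, 314 kept direction and side of the threshold, 27 changed sign (of which Lss for G108 on SP on deposited TPM also passed) and a further 5 passed the threshold. The changes of sign on deposited TPM were Hmgcs1 0.47, Sqle 0.46 and Lss 0.59 for G108 on SP, Fdps 0.12 for G108 on HP, Hmgcs1 −0.12, Idi1 −0.33, Fdps −0.21, Lss −0.20 and Cyp51 −0.34 for HP against SP with G108, Lss −0.47 for the interaction, and Srebf2 0.27, Hmgcs1 0.056, Sqle 0.13, Scap 0.19, Faf2 0.27, Npc1 0.016, Lpcat3 0.15 and Coq2 0.23 for G108 averaged over diets, where the median of all genes moved by up to 0.60. Without mitochondrial and Mup genes they were Lss 0.039 on SP, −0.049 on HP, −0.087 for the interaction and −0.00503 averaged, and Idi1 −0.048 and Cyp51 −0.066 for HP against SP with G108. With array weights they were Lss 0.13 on SP, −0.023 on HP and −0.15 for the interaction, and Fdps −0.0154 and Cyp51 −0.050 averaged. With voom they were Sqle 0.0044 on SP and Lss −0.000193 averaged, and with a pseudocount of 0.1 Lss −0.0024 averaged. The cause of these changes was not tested, and none of the values in scaled TPM had passed a test except Npc1.

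Leaving out 1 library changed the sign of 57 of 672 values, none of which had passed. For G108 on SP the ranges were Fdps −0.077 to 0.31, Sqle −0.44 to 0.23 and Lss −0.12 to 0.14. For G108 on HP the ranges were Idi1 −0.52 to 0.015, Fdps −0.18 to 0.15 and Lss −0.067 to 0.11. For HP against SP with G108 the ranges were Idi1 −0.24 to 0.43, Lss −0.0082 to 0.25 and Cyp51 −0.16 to 0.32. For the interaction the ranges were Hmgcs1 −0.41 to 0.13, Fdps −0.31 to 0.070, Sqle −0.55 to 0.12 and Lss −0.13 to 0.13. For G108 averaged over diets the ranges were Idi1 −0.034 to 0.31, Fdps −0.042 to 0.15, Lss −0.050 to 0.081 and Cyp51 −0.14 to 0.14.

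Mouse numbers did not pair the mice (correlation of deviations between same-numbered mice −0.567 to 0.529, over 0.1 in 8 of 24 pairs). With the number as a replicate block, 0 of the 7 genes were called, and the calls over all genes were 213 for G108 on SP, 35 on HP and 525 averaged (688 without the block). Other counts that moved by over 1.5 times were 103 and 52 calls on SP and HP with only the groups compared, 43 and 77 on HP with no filter and with a mean TPM of at least 5, and 1821, 297 and 2188 with array weights for G108 on SP, HP against SP with G108 and G108 averaged over diets. At a mean TPM of at least 5, Srebf2, Sqle and Lss had no value. With 4 mice per group and within-group SDs up to 0.68, 95% intervals reached from −0.95 to 1.45 for G108 on SP, so log2 changes inside them were not resolved.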
